A study of Homo sapiens with 6 samples.

Results

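Desmosomes are cell-cell junctions that tie the keratin filaments of neighboring epithelial cells together, and they give the epidermis its resistance to mechanical stress. In each desmosome, cadherins of the desmoglein and desmocollin families cross the membrane and bind their partners on the next cell. Inside the cell, the armadillo proteins plakoglobin and plakophilin bind the cadherin tails, and the plakin desmoplakin anchors this plaque to keratins.

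The genes described here are 10 desmosome components, chosen by symbol from the deposited count table of 12499 genes. They are the desmogleins *DSG2* and *DSG3*, the desmocollins *DSC2* and *DSC3*, plakoglobin (*JUP*), the plakophilins *PKP1*, *PKP2* and *PKP3*, desmoplakin (*DSP*) and periplakin (*PPL*). All 10 had a row in the table, with 423 to 39281 reads per library, and all passed the filter on low counts. The lowest count of any gene in the table, summed over the libraries, was 51, and some genes listed below had no row. Shares of all genes therefore refer to the genes in this table, not to every human gene. RNA-seq was performed on HaCaT cells, an immortalized human keratinocyte line. Cells were infected for 48 hours with lentivirus carrying the coding sequence of *ATF7*, a transcription factor (LV-*ATF7*, 3 libraries), or with a negative control lentivirus (LV-NC, 3 libraries). Both groups were then kept in high glucose (25 mM) for 24 hours, and no library at normal glucose was analyzed here. It is not stated whether the 3 replicates were separate cultures, so p-values measure the spread between these libraries, which may be technical.

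Totals ran from 16686472 to 20562768 counts per library. *ATF7* itself went against the labels: it stood at 46.4 to 52.2 CPM (read count scaled to library size) in the libraries labeled LV-NC and at 21.9 to 28.0 CPM across those labeled LV-*ATF7* (log2 fold change -0.98). How reads on exons shared with neighboring genes were counted is not stated, and 18.2% of the exon bases of *ATF7* lie in exons of other genes on its own strand and 27.1% in exons on the opposite strand. The authors reported higher *ATF7* mRNA and protein in HaCaT cells infected with LV-*ATF7*, by qRT-PCR and Western blot. The reason for the opposite direction here was not tested. Each direction below follows the labels as deposited, and every one would reverse if the labels were exchanged. LV-NC replicate 1 stood apart from the other libraries of its group (r = 0.967 and 0.969 across genes, against 0.994 between replicates 2 and 3), and results that rest on it are given with and without it. Of the 10 keratinocyte marker genes listed, 9 passed the test (67.6% of all genes tested did), 7 higher and 2 lower by the labels, and their summed level was 1827 to 2520 CPM across the libraries labeled LV-NC, against 6896 to 7648 CPM across those labeled LV-*ATF7*. *KRT5*, a basal keratin, reached 3622 CPM, whereas *KRT14*, its usual partner, stayed between 0.375 and 12.5 CPM in all 6 libraries. *KRT14* was among the 2 lower markers, but its call was lost in 7 of 13 alternatives, DESeq2 (adjusted p = 0.0550), the replicate block (0.0899) and 5 of the 6 fits that left out a library among them. Fibroblast markers (3 of 8 with a row, 2 tested, 1 lower) summed to 33.1 to 42.7 CPM in the first group and 17.3 to 21.7 CPM in the second. Melanocyte markers (2 of 7 tested, 1 higher and 1 lower) summed to 17.5 to 24.8 and 12.2 to 13 CPM. Monocyte and macrophage markers (3 of 8 tested, 1 higher and 1 lower) summed to 5.57 to 8.13 and 9.38 to 12.7 CPM. The listed markers with no row were not analyzed here. The part of these shifts in the desmosome results was not tested, and in bulk RNA fewer cells of a type and less RNA per cell cannot be told apart.

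By the labels, 5 of the 10 desmosome genes rose in LV-*ATF7*, 2 fell and 3 did not pass the test. *PKP1* rose 4.47-fold, *DSC2* 1.75-fold, *DSP* 1.67-fold, *DSG3* 1.49-fold and *DSG2* 1.46-fold. *PPL* fell 1.48-fold and *DSC3* fell 1.47-fold. *JUP*, *PKP3* and *PKP2* had log2 fold changes of -0.38, 0.05 and 0.01. These are calls at an adjusted p under 0.05 from edgeR's quasi-likelihood test, on counts scaled by the TMM method and with Benjamini-Hochberg adjustment over the 12462 genes tested. Of all genes tested, 67.6% were called, 34.7% as higher and 32.9% as lower, so 7 called of 10 is close to the background. The median log2 fold change was 0.30 over the 10 genes and 0.00 over all genes tested. When a change of 1.5-fold or more was also required, only *PKP1*, *DSC2* and *DSP* remained (3 of 10, against 52.9% of all genes), and *DSG3*, at 1.49-fold, lay just under that limit. Which genes passed the fold limit (0.585 in log2 units) depended on the libraries and the scaling. When counts were scaled by library size only, *DSP* (log2 fold change 0.583) lay just under it. *DSC3* (-0.72) and *PPL* (-0.73) then passed both limits, and 54.2% of all genes did. Without LV-NC replicate 1, *PPL* (-0.71), *DSG3* (0.67), *DSC3* (-0.61) and *JUP* (-0.60) passed both limits as well, and 56.5% of all genes did. *PKP1*, *DSC2* and *DSP* still passed them, and *DSG2* (0.58) lay just under the fold limit.

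**Figure D1:**
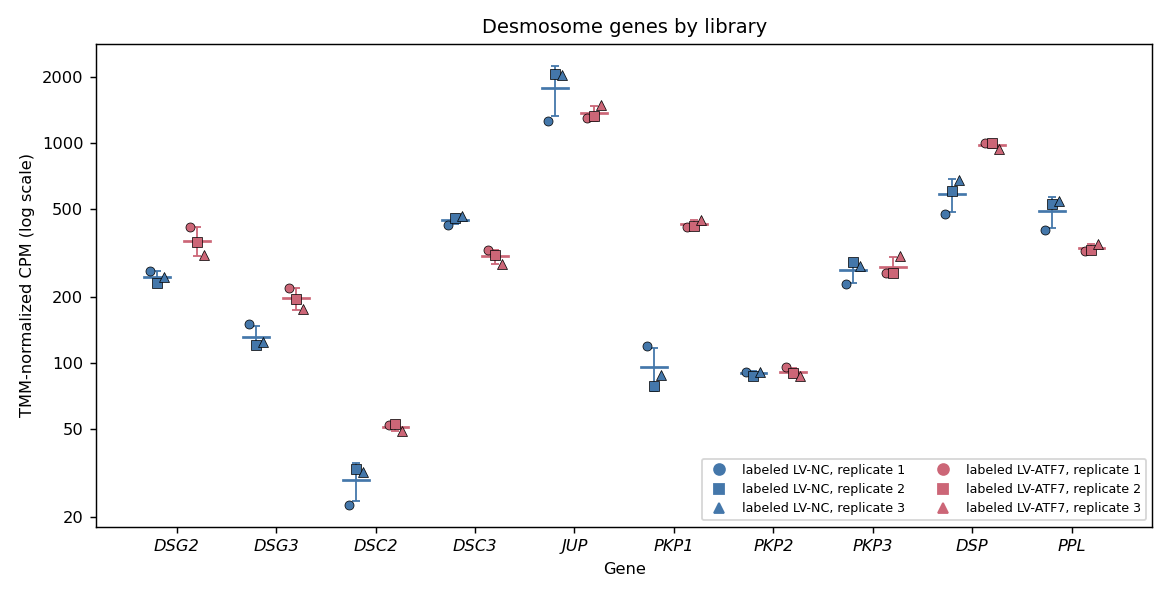
Normalized expression (TMM-normalized CPM, log scale) of the 10 desmosome genes in each library. Blue marks the libraries labeled LV-NC and red those labeled LV-*ATF7*, with the symbol giving the replicate, the line the mean and the bar the SD (n = 3). *PKP1* stood at 79.0 to 119.5 CPM in blue and 415.6 to 449.2 CPM in red, while *PKP2* stayed between 87.2 and 95.6 CPM in all 6 libraries.

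The desmogleins form the calcium-dependent adhesive contact with desmocollins on the opposite cell, and DSG3 is the main autoantigen of pemphigus vulgaris. *DSG2* (ENSG00000046604) lies on chromosome 18, plus strand, between 31498043 and 31549008 (positions here are those of GENCODE release 29 on GRCh38). It was 261.8, 230.4 and 247.3 CPM across the libraries labeled LV-NC, against 416.7, 356.6 and 308.6 CPM across those labeled LV-*ATF7*. The groups did not overlap, and the log2 fold change (± standard error, SE) was 0.55 ± 0.13 with an adjusted p of 0.00501. *DSG2* shares 2.76% of its exon bases with the antisense gene *DSG2-AS1*, and the strandedness of the counting is not stated in the sources used here, whereas the other 9 genes share no exon base with another gene. *DSG3* (ENSG00000134757, plus strand, chromosome 18 from 31447795 to 31478702) was 150.4, 120.3 and 125.0 CPM across the libraries labeled LV-NC. It was 219.9, 195.6 and 175.5 CPM across those labeled LV-*ATF7*, again without overlap (log2 fold change 0.58, SE 0.12, adjusted p = 0.00363). No difference in the proportion of the desmogleins to each other was detectable. Within a library, *DSG3* per length was 0.566 to 0.644 of *DSG2* in the libraries labeled LV-NC and 0.591 to 0.637 in those labeled LV-*ATF7*, and the groups overlapped. The log2 ratio of *DSG3* to *DSG2* counts differed by 0.04 between the groups, less than the SD of 0.096 among the libraries labeled LV-NC (two-sided exact permutation p = 0.60).

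The desmocollins moved in opposite directions. DSC3 is the desmocollin of the basal and lower layers of stratified epithelia, and DSC2 is the most widespread of the family, found also in simple epithelia and heart. *DSC3* (ENSG00000134762, minus strand, chromosome 18 from 30990008 to 31042815) was 425.8, 457.3 and 466.5 CPM across the libraries labeled LV-NC, against 325.4, 310.2 and 281.8 CPM across those labeled LV-*ATF7*. It fell by 0.56 in log2 units (SE 0.096, adjusted p = 0.00117), with no overlap. *DSC2* (ENSG00000134755, minus strand, chromosome 18 from 31058840 to 31102522) was 22.6, 33.1 and 32.1 CPM across the libraries labeled LV-NC. It was 52.2, 52.7 and 48.8 CPM across those labeled LV-*ATF7* (log2 fold change 0.81, SE 0.15, adjusted p = 0.00177). The lowest *DSC2* value was in LV-NC replicate 1, and without that library the log2 fold change was 0.63. *DSC3* nevertheless made up most of the desmocollin mRNA in every library. Per length, it held 96.5% ± 0.536 (SD, n = 3) of the pair in the libraries labeled LV-NC and 91.3% ± 0.309 (SD, n = 3) in those labeled LV-*ATF7*. The ratio of *DSC3* to *DSC2* was 2.61-fold lower in the latter, with a log2 count ratio of 3.96 ± 0.24 against 2.58 ± 0.057 (SD, n = 3 each). No library of one group reached the other (two-sided exact permutation p = 0.10, the lowest possible with 3 libraries against 3, and 0.14 after Benjamini-Hochberg adjustment over the 7 ratios tested). Each of these genes alone also separated the groups.

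*DSC3*, *DSC2*, *DSG3* and *DSG2* lie in this order along 559.0 kb of chromosome 18, with *DSC3* and *DSC2* 16.0 kb apart on the minus strand and *DSG3* and *DSG2* 19.3 kb apart on the plus strand. Along this stretch, *DSC3* alone of these 4 genes fell and the other 3 rose. The promoters of the neighbors *DSC2* and *DSC3*, which moved apart, and of *PKP1*, the gene with the largest change, are shown as the 250 bases before the RefSeq start site (GRCh38.p14), 5′ to 3′ on the strand of the gene, with capitals marking the GC box GGGCGG or its reverse complement CCGCCC.
DSC2, minus strand, chr18:31102422-31102671: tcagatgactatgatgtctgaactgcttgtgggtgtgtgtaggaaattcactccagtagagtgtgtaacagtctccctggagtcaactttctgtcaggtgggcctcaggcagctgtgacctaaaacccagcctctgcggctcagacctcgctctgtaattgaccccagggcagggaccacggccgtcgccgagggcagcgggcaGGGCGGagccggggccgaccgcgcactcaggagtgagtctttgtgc
DSC3, minus strand, chr18:31042743-31042992: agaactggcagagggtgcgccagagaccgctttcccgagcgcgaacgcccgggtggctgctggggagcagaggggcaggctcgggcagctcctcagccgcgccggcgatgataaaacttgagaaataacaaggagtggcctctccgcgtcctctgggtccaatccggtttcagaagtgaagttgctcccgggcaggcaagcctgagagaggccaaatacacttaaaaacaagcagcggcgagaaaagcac
PKP1, plus strand, chr1:201283256-201283505: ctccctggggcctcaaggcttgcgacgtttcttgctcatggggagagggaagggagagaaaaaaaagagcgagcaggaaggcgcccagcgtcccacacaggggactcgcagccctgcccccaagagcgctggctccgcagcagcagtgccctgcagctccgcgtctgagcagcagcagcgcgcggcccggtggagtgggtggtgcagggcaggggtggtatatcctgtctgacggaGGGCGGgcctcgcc

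RefSeq promoter windows of 300 bases were matched for 7 of the 10 genes by symbol, all but *PKP2*, *PKP3* and *PPL*. For each gene, the window whose RefSeq start lay nearest to the GENCODE start was used. The GENCODE starts of *DSC2*, *DSC3* and *PKP1* lie inside the stretches shown. The marked GC boxes of *DSC2* and *PKP1* therefore lie before the RefSeq start but past the GENCODE start. The GC box, on either strand, was in 5 of the 7 windows (*DSG2*, *DSC2*, *DSP*, *JUP* and *PKP1*) and in 45.0% of 35116 promoter windows of that length. The cAMP response elements TGACGTCA and TGACGCAA, the AP-1 site TGAGTCA and the Grainyhead-like sites AACCGGTT and AACCAGTT were in none of the 7 windows, and they were in 1.85%, 0.513%, 4.95%, 0.134% and 0.669% of all windows, searched on both strands. The GC content of the 7 windows ran from 44.0% for *DSG3* to 77.0% for *DSP*, with 58.7% as the median of all windows.

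The plakophilins bind desmoplakin and cluster desmosomal cadherins. PKP1 strengthens adhesion in the suprabasal epidermis, and its loss causes a skin fragility syndrome. PKP2 prevails in simple epithelia and heart, and PKP3 is present in nearly all layers of stratified epithelia. *PKP1* (ENSG00000081277, plus strand, chromosome 1 from 201283452 to 201332993) was 119.5, 79.0 and 88.5 CPM across the libraries labeled LV-NC, against 415.6, 418.7 and 449.2 CPM across those labeled LV-*ATF7*. The groups were far apart, with means of 95.7 ± 21.2 and 427.8 ± 18.6 CPM (SD, n = 3 each) and a log2 fold change of 2.16 (SE 0.16, 95% interval 1.80 to 2.53, adjusted p = 1.44e-05). The other plakophilins were not called.

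*PKP2* (ENSG00000057294, minus strand, chromosome 12 from 32790745 to 32896840) was 91.4, 87.2 and 91.4 CPM across the libraries labeled LV-NC, against 95.6, 89.7 and 87.4 CPM across those labeled LV-*ATF7*. Its groups overlapped, and the 95% interval of its log2 fold change ran from -0.18 to 0.21, which leaves room for a fold of up to 1.16. *PKP3* (ENSG00000184363, plus strand, chromosome 11 from 392614 to 404908) was 228.1, 289.5 and 275.4 CPM across the libraries labeled LV-NC, against 257.6, 257.1 and 306.7 CPM across those labeled LV-*ATF7*. Its interval ran from -0.24 to 0.34, or up to 1.26-fold. The sign of both log2 fold changes depended on the scaling and on the library left out.

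The makeup of the plakophilin mRNA therefore differed between the groups. Per length, *PKP1* held 13.4% ± 3.78 (SD, n = 3) of the family in the libraries labeled LV-NC and 40.0% ± 0.894 (SD, n = 3) in those labeled LV-*ATF7*. *PKP3* held 71.1% ± 4.93 and 49.5% ± 1.86, and *PKP2* held 15.4% ± 1.17 and 10.5% ± 1.05 (SD, n = 3 each). The ratio of *PKP1* to *PKP3*, which does not depend on scaling between libraries, was 4.38-fold higher in LV-*ATF7* by the labels, and that of *PKP1* to *PKP2* was 4.50-fold higher. Neither ratio overlapped between the groups (two-sided exact permutation p = 0.10 for each, and 0.14 after Benjamini-Hochberg adjustment). *PKP1* alone also separated the groups, so these ratios add no evidence apart from it. The ratio of *PKP2* to *PKP3* overlapped between them, with a difference of -0.04 on the log2 scale against an SD of 0.21 among the libraries labeled LV-NC.

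**Figure D2:**
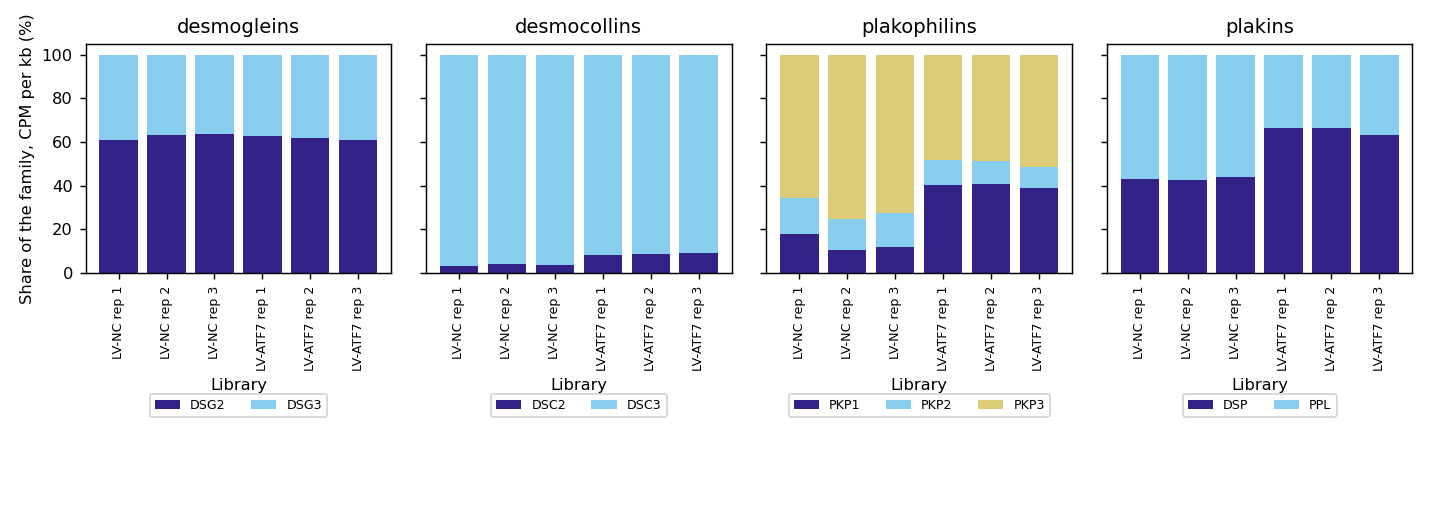
Share of each gene in its family (percent of CPM per kb of exon, stacked bars from 0) in each of the 6 libraries. *PKP1* held 10.6% to 17.7% of the plakophilins in the libraries labeled LV-NC and 39.0% to 40.8% in those labeled LV-*ATF7*, *DSP* held 42.4% to 44.0% and 63.2% to 66.5% of the plakins, and *DSG2* held 60.8% to 63.8% and 61.1% to 62.8% of the desmogleins, with overlap.

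Plakins link junctions to intermediate filaments. Desmoplakin is required for desmosomes and binds keratins directly, and periplakin is a plakin of both desmosomes and the cornified envelope. *DSP* (ENSG00000096696, plus strand, chromosome 6 from 7541575 to 7586717) was 478.7, 609.4 and 677.0 CPM across the libraries labeled LV-NC, against 1005, 1002 and 943.9 CPM across those labeled LV-*ATF7*. The groups did not overlap (log2 fold change 0.74, SE 0.14, adjusted p = 0.00172). *PPL* (ENSG00000118898, minus strand, chromosome 16 from 4882507 to 4960741) moved the other way, from 401.1, 526.6 and 547.9 CPM to 322.4, 325.2 and 349.3 CPM. It fell by 0.57 in log2 units (SE 0.13, adjusted p = 0.00537), and its log2 fold change without LV-NC replicate 1 was -0.71. The ratio of *PPL* to *DSP* was the steadiest among the libraries labeled LV-NC of the 7 ratios. Per length, *PPL* was 1.32, 1.36 and 1.27 times *DSP* in the libraries labeled LV-NC and 0.504 to 0.581 times *DSP* in the libraries labeled LV-*ATF7*. *PPL* thus exceeded *DSP* in all 3 libraries of the first group and was below it in all 3 of the second. The ratio shifted 2.48-fold (two-sided exact permutation p = 0.10, and 0.14 after Benjamini-Hochberg adjustment), and each gene alone also separated the groups. This order is per annotated exon length.

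Plakoglobin, encoded by *JUP*, is the armadillo protein shared by desmosomes and adherens junctions, where it takes the place of beta-catenin. *JUP* (ENSG00000173801, minus strand, chromosome 17 from 41754604 to 41786931) had the highest level per length of the 10 genes in both groups. It was 1264, 2059 and 2050.3 CPM across the libraries labeled LV-NC, against 1298, 1326 and 1498 CPM across those labeled LV-*ATF7*. LV-NC replicate 1 lay below all the libraries labeled LV-*ATF7*, so the groups overlapped, and *JUP* was not called (log2 fold change -0.38, SE 0.19, adjusted p = 0.110). When LV-NC replicate 1 was left out, the log2 fold change of *JUP* was -0.60 (95% interval -0.73 to -0.47, adjusted p = 3.66e-09). In that fit, 8 of the 10 genes were called, where 80.1% of all genes tested were. Its controls were only LV-NC replicates 2 and 3, and the SE of *JUP* was 0.063 against 0.19 with all libraries. The ratio of *JUP* to *DSP* did separate the groups with all libraries included. *DSP* alone also separated them (log2 fold change 0.74), so the ratio does not show a change of *JUP* by itself. Per length, *JUP* was 6.98 to 8.93 times *DSP* in the libraries labeled LV-NC and 3.41 to 4.20 times *DSP* in those labeled LV-*ATF7*. The ratio was 2.15-fold lower (two-sided exact permutation p = 0.10, and 0.14 after Benjamini-Hochberg adjustment).

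**Figure D3:**
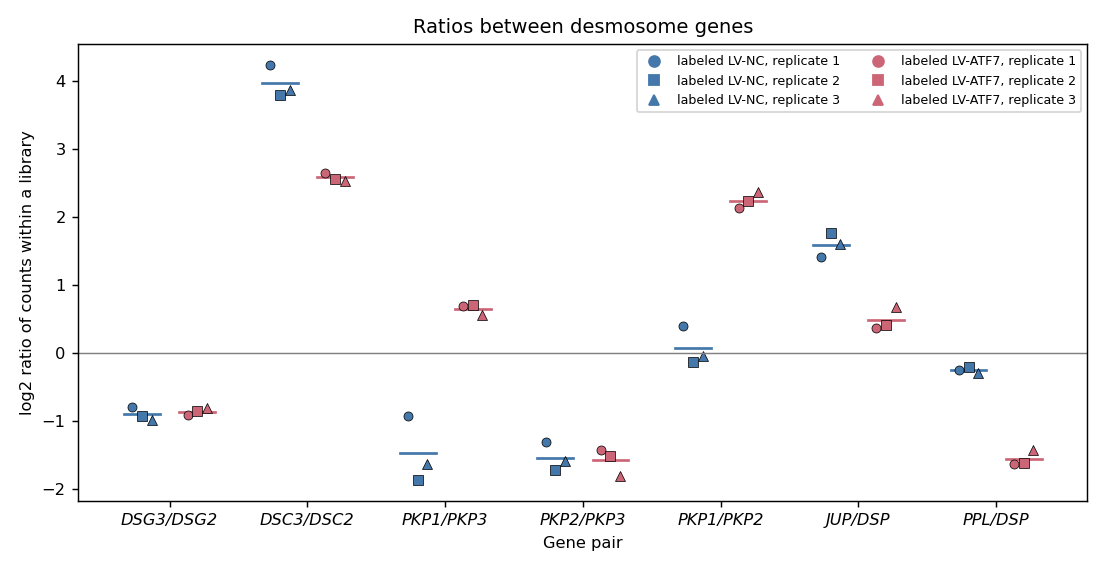
The log2 ratio of counts of 2 desmosome genes within each library, for the 7 pairs tested, in libraries labeled LV-NC (blue) and LV-*ATF7* (red), with lines at the means of 3 libraries. The groups stand apart for *DSC3*/*DSC2*, *PKP1*/*PKP3*, *PKP1*/*PKP2*, *JUP*/*DSP* and *PPL*/*DSP* and overlap for *DSG3*/*DSG2* and *PKP2*/*PKP3*.

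Across the 10 genes, LV-NC replicate 1 lay outside the range of replicates 2 and 3 in 9. Among the 7 called genes, it was nearer to the libraries labeled LV-*ATF7* than the mean of replicates 2 and 3 in 5 and farther from them in 2, *DSC2* and *DSP*. Its median distance from the mean of replicates 2 and 3 was 0.36 on the log2 scale over the 10 genes and 0.30 over all genes tested. The 7 called genes kept their direction and their call without it, as they did in each of the other 5 fits that left out a library. In 7 of the 10 genes, the same 7 that were called, the groups did not overlap, against 72.7% of all genes tested.

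**Figure D4:**
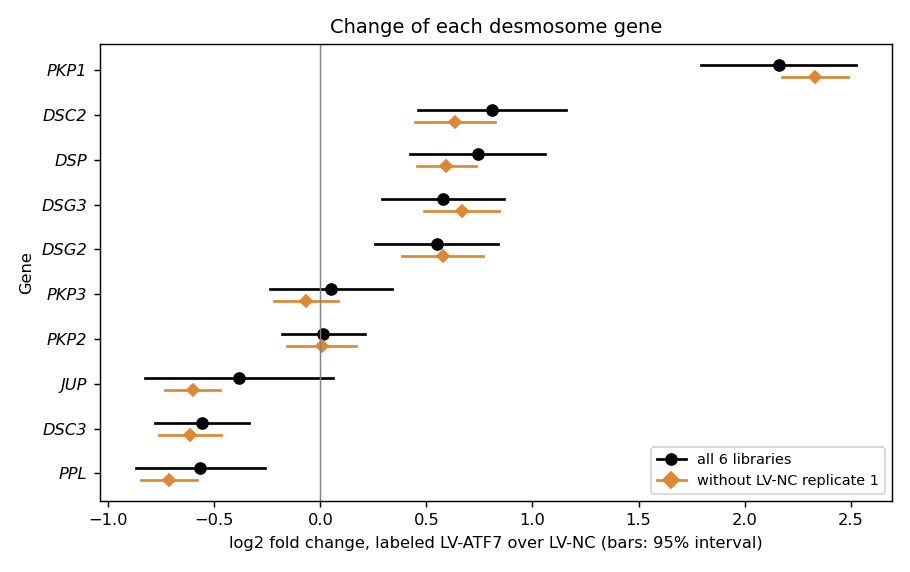
The log2 fold change of each desmosome gene in the libraries labeled LV-*ATF7* over those labeled LV-NC, with 95% intervals, from all 6 libraries (black) and without LV-NC replicate 1 (orange). The interval of *JUP* spans 0 with all libraries (-0.83 to 0.06) and lies below 0 without that replicate, while those of *PKP2* and *PKP3* span 0 in both fits.

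Per length (TMM-normalized CPM per kb of exons of coding transcripts), the levels of the genes spread widely within each group. In the libraries labeled LV-NC, *JUP* was highest at 483.3 ± 123.2 (SD, n = 3), followed by *PKP3* at 94.1, *PPL* at 78.9, *DSC3* at 63.8 and *DSP* at 60.1, whose neighbors in this order overlapped. Below them came *DSG2* at 39.8, *DSG3* at 23.9, *PKP2* at 20.3 and *PKP1* at 17.6, of which the last pair overlapped, and *DSC2* at 2.34. In those labeled LV-*ATF7*, *JUP* was again highest at 370.8 ± 29.3 (SD, n = 3). *DSP* at 100.4 and *PKP3* at 97.5 overlapped and came next, then *PKP1* at 78.5, and *DSG2* at 58.3 overlapped with *PPL* at 53.3. *DSC3* at 43.3, *DSG3* at 35.7, *PKP2* at 20.5 and *DSC2* at 4.10 followed. *PKP1* moved from rank 9 to rank 4 and *DSP* from rank 5 to rank 2, while *DSC2* stayed last. With all annotated exons as the length, *PKP1* and *PKP2* exchanged places in the first group and *PPL* and *DSC3* in the second. Together, the 10 genes held 3781 to 4764 CPM of the library total in the libraries labeled LV-NC and 4097 to 4231 in those labeled LV-*ATF7*, with overlap. *JUP* made up 36.7% to 45.8% of this sum in the first group and 29.4% to 33.7% in the second.

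Other genes of the desmosome were listed by role, and 4 of the 8 listed had a row: envoplakin (*EVPL*), which pairs with periplakin, *PERP*, a tetraspan membrane protein of desmosomes, *PKP4*, a relative of the plakophilins, and *PNN*, a nuclear protein first described at desmosomes. *DSG1*, *DSG4*, *DSC1* and *CDSN* had no row and were not analyzed here. *EVPL*, *PNN* and *PKP4* rose by the labels and *PERP* was not called. *EVPL* was 78.4 to 96.1 CPM across the libraries labeled LV-NC, against 107.3 to 126.1 CPM across those labeled LV-*ATF7* (log2 fold change 0.43, adjusted p = 0.0114), so it rose where its partner *PPL* fell. *PNN* was 72.6 to 98.7 CPM and 112.4 to 126.9 CPM (log2 fold change 0.54, adjusted p = 0.00760). *PKP4* was 67.8 to 103.5 CPM and 109.4 to 112.4 CPM (log2 fold change 0.48, adjusted p = 0.0337). *PERP* was 219.7 to 288.7 CPM and 318.6 to 332.1 CPM (log2 fold change 0.29, adjusted p = 0.0609). For all 4, the groups did not overlap. Over all genes tested, 67.6% were called and 72.7% did not overlap, so neither count sets these 4 genes apart. These calls were less stable than those of the 10 genes: all 4 were called without LV-NC replicate 1, only *PNN* without LV-NC replicate 2, and none without LV-NC replicate 3 or with scaling by library size only. *EVPL* had an adjusted p of 0.0590 without LV-NC replicate 2 and 0.0671 without LV-NC replicate 3. *PKP4* also lost its call without any 1 of the libraries labeled LV-*ATF7*.

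Lists of genes that work with desmosomes held calls in both directions, where 67.6% of all genes tested were called. Of 11 keratin partners tested, 5 rose, 2 fell and 4 were not called. The largest rises were of *KRT7* (log2 fold change 4.02), a keratin of simple epithelia, *KRT5* (3.65) and *KRT15* (3.43), both basal keratins. *KRT5* was 99.96, 355.5 and 343.8 CPM across the libraries labeled LV-NC, against 3224, 3215 and 3622 CPM across those labeled LV-*ATF7*. Of 10 adherens junction genes, 4 rose and 5 fell, among them *NECTIN1* (log2 fold change 2.16), a nectin of epithelial contacts, and *CDH2* (-2.49), N-cadherin. *CDH2* was low in both groups, at 9.38 to 11.7 CPM across the libraries labeled LV-NC and 1.51 to 2.50 CPM across those labeled LV-*ATF7*. *CTNND1*, p120-catenin, had a log2 fold change of 1.79 at 7.06 to 31.8 CPM, and 4.64% of its exon bases are shared with other genes on its strand. Of 11 transcription factors known at desmosomal genes, 4 rose and 6 fell. *TP63*, the master regulator of stratified epithelia, averaged 15.5 ± 2.84 CPM in the first group and 231.5 ± 10.8 CPM in the second (SD, n = 3), a log2 fold change of 3.90 (adjusted p = 1.18e-06). *OVOL1* (-2.16) and *GRHL3* (-1.57) fell, the latter with levels of 3.16, 20.9 and 19.0 CPM in LV-NC replicates 1, 2 and 3, so its groups overlapped. The call of *GRHL3* (adjusted p = 0.0411) was lost in 6 of 14 alternatives, the replicate block (adjusted p = 0.0809) and 5 of the 6 fits that left out a library. Of 15 genes of desmosome turnover and signaling, 5 rose and 5 fell. *EGFR*, a receptor whose signaling loosens desmosomes, rose by 2.35 on the log2 scale. *KLK7*, a protease that cleaves desmosomal proteins, rose by 3.20 from a mean of 0.538 CPM. *CTSV*, a cathepsin, fell by 3.23, from a mean of 22.5 CPM to 2.39 CPM. The median log2 fold change was 0.03, -0.37, -0.89 and -0.02 in these 4 lists, in the order given, against 0.00 over all genes tested.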

How the data were processed

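The deposited table gives, for 12499 genes, raw read counts in 6 libraries made by the authors from poly(A) RNA of infected HaCaT cells, 3 per group. The authors also deposited FPKM values, used here only as an alternative for the ratios of 2 genes, and columns of their own test (fold changes, p-values), which were not used. The submitters' processing notes name the build GRCh38. The aligner, counter and strandedness are not given in the sources used here. Totals were 16686472 to 20562768 counts. Replicates differed by more than counting noise (chi-square per gene 2.86 to 76.2, highest for pairs with LV-NC replicate 1), so the spread between libraries limits the precision.

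Counts were tested with edgeR 4.0.16 in R 4.3.3 (quasi-likelihood test, TMM scaling, filterByExpr, two-sided, Benjamini-Hochberg over 12462 genes), with a threshold of 0.05. Levels are TMM-normalized CPM. Ratios of 2 genes within a library used an exact permutation test. Gene positions and lengths came from GENCODE release 29 (12485 IDs matched) and promoters from RefSeq (GRCh38.p14). Alternatives used DESeq2 1.42.0, limma 3.58.1 (voom with quality weights), other scalings and filters, a replicate block and each library left out.

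The genes and lists (other desmosome genes, keratin partners, adherens junction, transcription factors, turnover and signaling, and cell type markers) were chosen with earlier results of these data known. Named were the 10 desmosome genes, the other desmosome genes with a row, *ATF7*, from each context list the 3 called genes with the largest log2 fold change in either direction and a mean of at least 50 counts, and the 3 genes nearest in pattern to the desmosome genes with the largest rise and fall. *JUP*/*DSP* and the other ratios were fixed with the lists. Other marker genes given with values, *KRT14* among them, serve as checks of the cell type.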

Additional observations from a re-analysis of the deposited data

How the results depend on the processing

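The 7 called desmosome genes kept their direction and their call in all 14 alternatives. In the main fit, 3 remained when a change of 1.5-fold or more was also required, but which genes passed that limit varied between fits. Upper quartile scaling added *DSG3* (log2 fold change 0.59). Library size only added *DSC3* (-0.72) and *PPL* (-0.73) and lost *DSP* (0.583). Voom quality weights added *DSG2* (0.60), *DSG3* (0.69), *JUP* (-0.60) and *PPL* (-0.71). More genes also passed without LV-NC replicate 1, and *DSG2* (0.65), *DSG3* (0.66) and *PPL* (-0.60) passed without LV-*ATF7* replicate 3. *JUP* was called without LV-NC replicate 1, with scaling by library size only and with voom quality weights. When only library size was used for scaling, the median over all genes shifted to -0.16 in log2 units, and higher calls went from 51.3% to 42.4% of calls. Of the other desmosome genes, 0 were called with that scaling and 0 to 4 when a library was left out (1 without LV-NC replicate 2, 0 without LV-NC replicate 3). Of the keratin partners, 11 were called with voom quality weights and 6 to 11 when a library was left out, with 11 without LV-NC replicate 1. The share of all genes called was also higher in these fits, 83.4% with voom quality weights and 80.1% without LV-NC replicate 1, against 67.6%.

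The log2 fold change of *PKP2*, not called, changed sign with DESeq2 (-0.0054), library size only (-0.15), median ratio scaling (-0.0065) and at least 10 counts in every library (-0.0045), and ran from -0.043 to 0.044 when a library was left out. That of *PKP3*, also not called, changed sign with library size only (-0.11) and voom quality weights (-0.097), and ran from -0.067 to 0.095. The log2 ratio of *PKP2* to *PKP3* differed by -0.13 to 0.075 between the groups when a library was left out. The summed desmosome genes differed by -255.6 CPM by library total (-570.2 to -78.8 when a library was left out) and by 218.5 on the TMM scale, within the spread, with no test. With all annotated exons as the length, an alternative chosen after seeing the data, *PKP1* held 15.9% and 44.7% of the plakophilins and *DSP* 47.6% and 69.3% of the plakins. The cause was not tested.

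Whether replicate numbers pair the libraries was not settled. Deviations from the group means correlated at only 0.058, -0.021 and 0.065 for numbers 1, 2 and 3, but 4 of 6 libraries correlated best with their own number. The library name deposited for LV-NC replicate 3 also carries a number other than 3. With the replicate block, 7 of the 10 desmosome genes were called and 8210 genes in all, against 8429 without it.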

Other observations

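Over the 6 libraries, the genes whose centered log2 CPM lay nearest to that of *PKP1* were *LAMA5*, a laminin chain (root mean square difference 0.0459 on the log2 scale), *ZNF827* (0.0551) and *MYC* (0.063). Nearest to *PPL*, which had the largest fall among the called desmosome genes, were *RNF167* (0.0166), *ATG13*, an autophagy gene (0.0268), and *RRP36* (0.028). These are descriptions over 6 libraries in 2 groups, with no test.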
